A study of Mus musculus with 36 samples.

Results

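The glutamate and GABA receptor subunits are 43 of the 55487 genes of the deposited count table. They were taken by symbol alone, with no measured value used. They comprise 4 AMPA, 7 NMDA, 4 kainate and 7 metabotropic glutamate receptor genes, 19 GABA-A genes and 2 GABA-B genes. The symbols taken do not include Grm6 or Grik1, so each family sum, share and rank below covers the members only. Their levels were followed in all 36 bulk RNA-seq libraries of the series, 12 each from the retina, the unmyelinated optic nerve (UON) and the myelinated optic nerve (MON) of C57BL/6 mice. In naïve tissue the AMPA subunit Gria1 and the GABA-A subunit Gabrg3 were higher in UON than in MON, and 10 other members were lower, of 41 tested. The shares of all genes called there were 4.83% higher and 4.8% lower. The retina held many subunits that were near 0 in nerve. After injury, the only members that passed the main test were Gabrr2 and Grik5, both lower in crushed MON. These were 2 of 33 members tested at 3 days and 1 of 33 at 2 weeks, where 4.26% and 2.72% of all genes were called.

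The naïve mice were untreated on both sides. The injured groups had an optic nerve crush on 1 side, examined at 3 days (3D) and 2 weeks (2W), or an injection of microbeads into the anterior chamber of 1 eye, which raises the intraocular pressure and is called glaucoma here, examined at 3D, 2W and 6 weeks (6W). All were C57BL/6 mice, aged 2 to 4 months per the methods of the study, and their labels name no transgene or deletion. Each group of each tissue was n = 2 libraries, 1 pool of RNA from 2 females and 1 pool from 2 males, so that sex and pool cannot be told apart, and p-values measure the spread between these pools. The nerve segments were dissected on either side of the transition to myelin, which was discarded. The controls of both models were the same 2 naïve pools of each tissue.

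The total of estimated counts ran from 16158723 to 78054205 per library, and the naïve MON pools had 78054205 (female) and 17757595 (male). In naïve tissue, marker sums set retina apart from nerve and MON apart from UON, but UON also held RNA of oligodendrocyte markers. Over 12 markers of photoreceptors, the summed level was 65101 and 64975 CPM (counts scaled to a common library total) in naïve retina and 23.0 to 156 CPM in naïve nerve. Over 12 markers of mature oligodendrocytes, the sum was 163359 and 127787 CPM in naïve MON, 28403 and 21481 CPM in naïve UON, and 114 and 105 CPM in naïve retina. Across the 12 UON libraries this sum ran from 3403 to 42030 CPM, with the lowest in the male pool at crush 2W and the highest in the female pool at glaucoma 3D. Its part in the nerve values below was not tested. In bulk tissue, fewer cells of a type and less RNA per cell cannot be told apart.

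Glutamate and GABA are the main fast excitatory and inhibitory transmitters of the retina. AMPA, kainate and NMDA receptors are glutamate-gated cation channels built from subunits that set their kinetics and calcium permeability. Metabotropic receptors couple to G proteins. GABA-A receptors are chloride channels assembled from alpha, beta, gamma, delta, epsilon, pi, theta and rho subunits, and GABA-B receptors are G protein-coupled dimers of Gabbr1 and Gabbr2. In the optic nerve there are axons of retinal ganglion cells but no neuronal cell bodies, and astrocytes and oligodendrocyte lineage cells are known to carry several of these receptors.

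Gria1 lies on chr11:57011387-57330244 (+ strand, GRCm38) and can include either of 2 mutually exclusive exons, flip or flop, that alter how fast the channel desensitizes. Both are shown here because the deposited transcript counts separate them. The flip exon lies at chr11:57310608-57310722 and the flop exon at chr11:57309769-57309883, both coding, and each has 115 bases. Capitals mark the 36 bases at which they differ.
Gria1 flip: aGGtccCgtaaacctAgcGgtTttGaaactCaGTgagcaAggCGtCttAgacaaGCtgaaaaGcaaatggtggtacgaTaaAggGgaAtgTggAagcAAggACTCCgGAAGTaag
Gria1 flop: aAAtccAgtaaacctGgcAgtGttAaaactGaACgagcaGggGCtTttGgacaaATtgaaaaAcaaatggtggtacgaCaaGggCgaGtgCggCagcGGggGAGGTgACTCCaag

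Several GABA-A genes sit near each other. Gabra5 and Gabrg3 are on chromosome 7, Gabrg1, Gabra2, Gabra4 and Gabrb1 on chromosome 5, Gabra6 and Gabrb2 on chromosome 11, Gabre, Gabra3 and Gabrq on chromosome X, and the rho genes Gabrr2 and Gabrr1 are neighbours on chromosome 4. The bases before the start sites of 3 of them are shown, from RefSeq on GRCm38.p6, because Gabrg3 was the GABA-A gene called higher in UON than in MON, Gabrr2 was one of the 2 called lower, and Gabrr1 is the neighbour of Gabrr2 that was near 0 in nerve. The windows are chr7:57387216-57387465 (− strand) for Gabrg3, chr4:33062862-33062998 (+ strand) for Gabrr2 and chr4:33132306-33132520 (+ strand) for Gabrr1.
Gabrg3: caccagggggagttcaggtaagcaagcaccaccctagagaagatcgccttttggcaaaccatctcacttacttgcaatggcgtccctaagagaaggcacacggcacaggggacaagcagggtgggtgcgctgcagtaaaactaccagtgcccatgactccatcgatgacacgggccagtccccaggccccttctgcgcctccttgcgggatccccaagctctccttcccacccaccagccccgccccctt
Gabrr2: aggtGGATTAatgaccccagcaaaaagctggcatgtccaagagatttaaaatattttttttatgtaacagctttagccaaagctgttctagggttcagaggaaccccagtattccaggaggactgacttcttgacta
Gabrr1: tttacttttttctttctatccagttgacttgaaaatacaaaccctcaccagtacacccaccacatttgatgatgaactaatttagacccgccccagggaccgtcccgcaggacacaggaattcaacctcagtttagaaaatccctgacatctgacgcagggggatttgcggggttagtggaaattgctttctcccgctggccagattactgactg

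Capitals in Gabrr2 mark its match to TAATCC on the opposite strand (GGATTA), the core bound by CRX and OTX homeodomain factors of photoreceptors and bipolar cells. Promoter windows were found for 31 of the 43 members, 38 windows in all, and 4 motifs were searched on both strands. TAATCC was in the windows of 2 members, Gabrr2 and Gabra2, and in 7.06% of all 32851 windows searched in the same way. TTCAGCACC, the first part of the element bound by the neuronal repressor REST, was in 1 window (Grm2) against 0.371% of all. TATAAA, the TATA box, was in windows of Gabra3, Gabrb2 and Grin3b, against 13.6% of all, and ACAAAG, the core bound by SOX and TCF factors, in those of Gabbr1 and Gabra3, against 18.7%. None of the 4 motifs is contained in another, and a match is a description of the sequence only.

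Levels are compared between genes in TPM, which divides by transcript length and scales each library to the same total, with the female pool first and the male pool second. Summed over all 43 members, naïve UON held 765 and 761 TPM, naïve MON 303 and 239 TPM, and naïve retina 714 and 770 TPM. Members above a mean of 1 TPM numbered 14 (UON), 19 (MON) and 36 (retina). UON thus reached a total near that of the retina from far fewer members: Gria1 alone gave 71.8% of the UON sum, whereas the highest member gave 26.8% in MON (Gria1) and 17.2% in retina (Gabrr2).

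**Figure D1:**
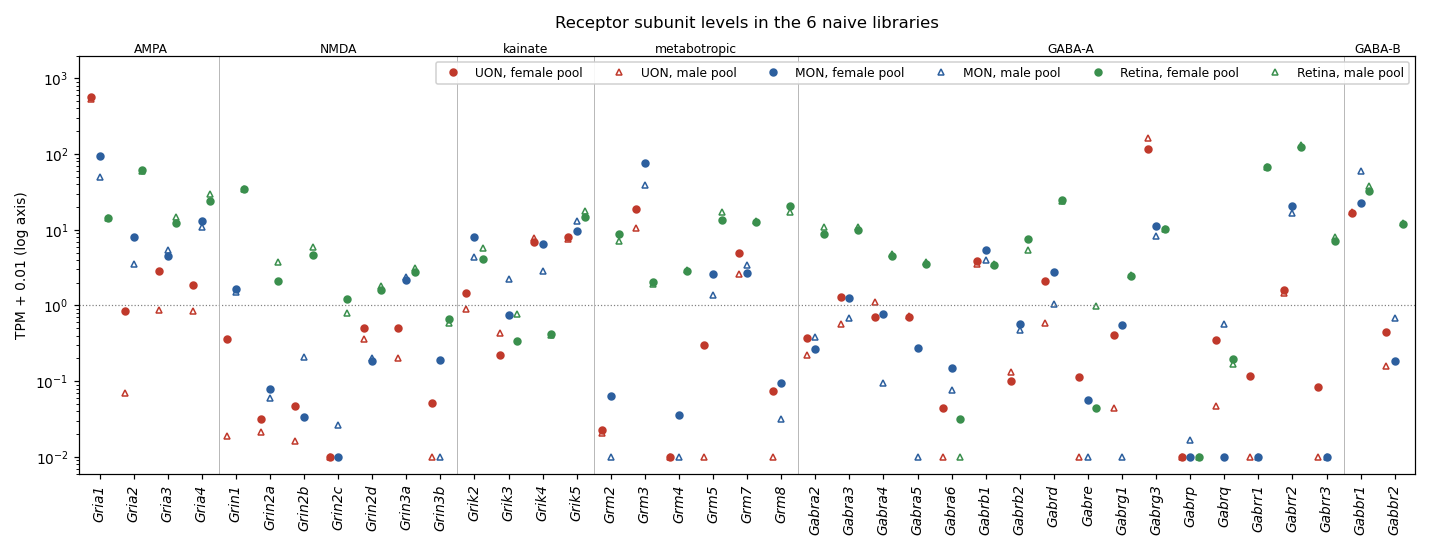
TPM of receptor subunits in the 6 naïve libraries, with 1 point for each pool and a logarithmic axis. Gria1 stands at 564 and 532 TPM in UON and Gabrr2 at 126 and 130 TPM in retina, and more members lie above 1 TPM in retina than in either nerve segment.

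Among AMPA subunits, Gria1 measured 564 and 532 TPM in UON, 95.4 and 49.7 TPM in MON and 14.2 and 14.5 TPM in retina. It made up 99.3% of the AMPA sum in UON and 76.2% in MON, whereas the leading AMPA subunit of retina was Gria2, which renders the channel impermeable to calcium, with 52.6%. Gria2 measured 61.5 and 60.5 TPM in retina, 8.05 and 3.49 TPM in MON and 0.835 and 0.0592 TPM in UON. Gria4 measured 24.1 and 29.9 TPM in retina, 13.1 and 10.8 TPM in MON and 1.84 and 0.848 TPM in UON. The pools of the 3 tissues did not overlap for Gria1, Gria2 or Gria4. Gria3 was low in UON, at 2.82 and 0.869 TPM.

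None of the 7 NMDA subunits reached a mean of 1 TPM in UON. The obligatory subunit Grin1 measured 34.1 and 35.1 TPM in retina (70.4% of the NMDA sum), 1.65 and 1.52 TPM in MON and 0.354 and 0.00908 TPM in UON. Grin1 shares 13.5% of its exon bases with the antisense gene Grin1os, and the strand setting of the counting is not given in the sources used here. Grin2b, which slows receptor deactivation, measured 4.69 and 5.95 TPM in retina. Grin3a, which lowers calcium permeability, was the leading NMDA subunit of MON with 2.16 and 2.37 TPM, against 2.78 and 3.16 TPM in retina and 0.50 and 0.193 TPM in UON. Grin2d was the leading one in UON at only 0.496 and 0.354 TPM, and measured 0.176 and 0.195 TPM in MON.

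Of the 4 kainate members, Grik5, an auxiliary high-affinity subunit, led in every tissue. It measured 7.90 and 7.63 TPM in UON, 9.66 and 13.2 TPM in MON and 14.6 and 17.9 TPM in retina. Its partner in the same class, Grik4, measured 6.86 and 7.69 TPM in UON and 6.47 and 2.88 TPM in MON but 0.405 and 0.399 TPM in retina. Grik2, a principal channel-forming subunit, measured 1.46 and 0.892 TPM in UON, 8.0 and 4.31 TPM in MON and 4.09 and 5.75 TPM in retina. In UON the auxiliary Grik4 and Grik5 thus stood above the channel-forming Grik2 and Grik3. The channel-forming Grik1 is not among the members. Grik3 was the third in retina at 0.333 and 0.757 TPM.

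The leading metabotropic receptor differed between nerve and retina. Grm3, a receptor that inhibits adenylyl cyclase and is known from astrocytes, measured 76.2 and 39.4 TPM in MON (91.8% of the metabotropic sum), 18.8 and 10.4 TPM in UON and 2.06 and 1.91 TPM in retina. Grm7, a presynaptic receptor, measured 4.90 and 2.62 TPM in UON, 2.69 and 3.43 TPM in MON and 12.8 and 13 TPM in retina. Among the members, which do not include Grm6, the retina was led by Grm8, at 20.6 and 17.2 TPM. Grm5 followed, at 13.5 and 17.0 TPM. Grm5 couples to phospholipase C, and it measured 2.56 and 1.35 TPM in MON and 0.294 and 0 TPM in UON.

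Of the GABA-A genes, Gabrg3 measured 117 and 163 TPM in UON, 88.4% of the GABA-A sum there, 11.3 and 8.23 TPM in MON and 10.2 and 10.3 TPM in retina. The gamma subunits anchor receptors and shape their response to benzodiazepines. The beta subunit Gabrb1, at 3.81 and 3.49 TPM in UON, was far below Gabrg3. No alpha subunit reached a mean of 1 TPM in UON: the highest, Gabra3, measured 1.28 and 0.564 TPM. Gabra3 was named for this comparison after its values were seen.

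The highest GABA-A gene of retina was a rho subunit, a class that forms the slow receptors of bipolar cells. Gabrr2 measured 126 and 130 TPM in retina, 20.4 and 16.6 TPM in MON and 1.59 and 1.44 TPM in UON. Its neighbour Gabrr1 measured 68.1 and 67.1 TPM in retina but was at 0 in both MON pools and at 0.107 and 0 TPM in UON. The pair of neighbouring genes therefore differed in MON, where Gabrr2 was the highest GABA-A gene.

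Of the GABA-B subunits, Gabbr1, which binds GABA, measured 16.9 and 17.0 TPM in UON, 22.9 and 59.1 TPM in MON and 32.4 and 37.6 TPM in retina. Gabbr2, which the dimer needs to reach the surface and signal, measured 11.9 and 12.4 TPM in retina but 0.441 and 0.149 TPM in UON and 0.177 and 0.680 TPM in MON. The transcripts behind Gabbr1 were not alike. Gabbr1-209, a protein-coding model of 1595 exon bases, took 50.6% and 63.4% of Gabbr1 counts in naïve UON, 8.20% and 27.9% in MON and 1.59% and 4.57% in retina, while a coding model of 5248 exon bases took 91.2% and 87.5% in retina.

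The naïve tissues were compared by edgeR's quasi-likelihood test on the counts, with sex as a term and p-values adjusted over all genes, and calls required both an adjusted p below 0.05 and a log2 difference larger than 1. Fold changes below are log2 with their standard error (SE), and CPM values are comparable within a tissue or within the naïve set. Of the 43 members, 41 passed the filter on low counts in the naïve fit, and Gabra6 and Gabrp did not. The comparison of UON with MON asks how the nerve differs before and after it gains myelin. There 2 members were higher in UON, where 4.83% of all genes were called higher, and 10 were lower, where 4.8% of all genes were called lower. The median over the tested members was −1.13, or −0.81 with members at 0 in a group set at their counting bound, against −0.06 over all genes.

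Gabrg3 measured 220 and 295 CPM in UON and 29.6 and 22.5 CPM in MON, a log2 difference of 3.31 (SE 0.277, adjusted p = 0.00152). Gria1 measured 1710 and 1644 CPM in UON and 320 and 177 CPM in MON, a log2 difference of 2.80 (SE 0.297, adjusted p = 0.00255). In both genes every UON pool stood above every MON pool. Gabra5, which lies near Gabrg3 on chromosome 7, was not called and measured 1.04 and 1.09 CPM in UON against 0.445 and 0 CPM in MON.

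Of the 10 members lower in UON, the rho subunit Gabrr2 measured 1.51 and 0.729 CPM in UON and 21.4 and 16.2 CPM in MON, a log2 difference of −4.10 (SE 0.312, adjusted p = 0.00139). Gria4 measured 5.14 and 1.89 CPM against 39.6 and 38.6 CPM (−3.56, SE 0.420, adjusted p = 0.0035). Grm3 measured 31.6 and 17.9 CPM against 143 and 78.7 CPM (−2.16, SE 0.249, adjusted p = 0.00325). In these members, as in each of the 10, both UON pools lay below both MON pools. Gabbr1 measured 19.1 and 19.6 CPM against 44.6 and 99.9 CPM (−1.82, SE 0.330, adjusted p = 0.0166), so that its 2 MON pools were themselves far apart.

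The other 6 were ionotropic glutamate subunits and Gabrb2. The differences were −3.53 for Grin1, −3.43 for Gria2, −3.07 for Grin3a, −2.35 for Grik2, −2.28 for Grik3 and −2.37 for Gabrb2, with edgeR adjusted p between 0.0117 and 0.045. For 4 of the 10 the call depended on the fit. With all 36 libraries in 1 fit, the edgeR adjusted p was 0.219 for Gabrb2, 0.149 for Grik2 and 0.291 for Grik3. Without the male MON pool the adjusted p was 0.0887 for Grin1, without the female MON pool it was 0.0647 for Grik2, and Grik3 and Gabrb2 lost the call without any of the 4 pools compared, with p up to 0.292 and 0.148. Without the sex term, which is the pairing block here, the edgeR adjusted p was 0.0526 for Grin1 and 0.0963 for Grik3. Markers of mature oligodendrocytes and their precursors moved in the same direction: 12 of 12 and 7 of 10 were lower in UON, with median log2 differences of −3.01 and −2.48. The precursor marker C1ql1 was higher (1.80, edgeR adjusted p = 0.0202), while 3 of 11 astrocyte markers were higher and 1 was lower, and 6 of 8 markers of scleral and meningeal fibroblasts were higher. Their part in these receptor differences was not tested.

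**Figure D2:**
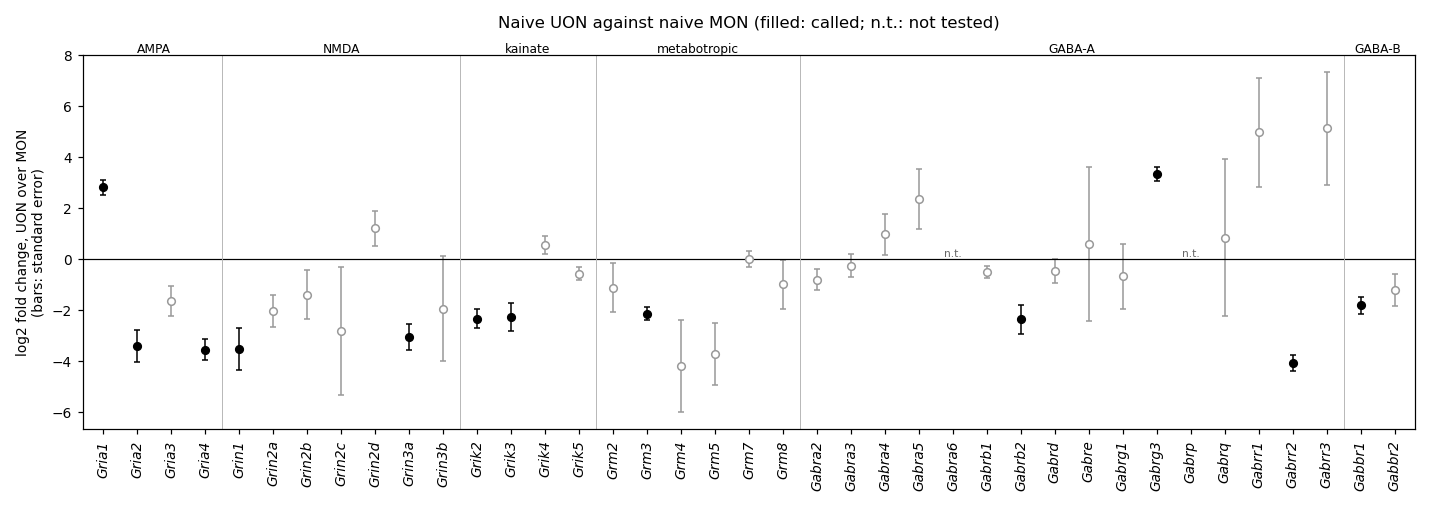
Log2 fold change of naïve UON against naïve MON for members tested, with bars of 1 SE. Gabrg3 at 3.31 and Gria1 at 2.80 are the only members called higher, and Gabrr2 at −4.10 is the lowest of the 10 called lower.

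Against retina, UON held 4 members higher (18.2% of all genes were called higher) and 28 lower (13.5% called lower). Gria1 was higher by 5.59 (SE 0.337, adjusted p = 3.98e-05), Grik4 by 4.29 (SE 0.403, adjusted p = 0.000223), Gabrg3 by 3.95 (SE 0.284, adjusted p = 6.99e-05) and Grm3 by 3.10 (SE 0.265, adjusted p = 0.000146), all by edgeR. Gria1 measured 36.4 and 33.4 CPM in retina and Grik4 1.12 and 1.05 CPM, against 19.6 and 22.8 CPM for Grik4 in UON. Gabrg3 measured 18.1 and 15.4 CPM in retina. The members thus comprised 1 each of the AMPA, kainate, GABA-A and metabotropic families.

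The 28 lower members covered all families. Grm4, a presynaptic receptor, was at 0 in both UON pools and at 6.06 and 5.91 CPM in retina, at least 89.9-fold lower in UON with a floor of 3 counts per library. Grin2c was also at 0 in UON, at least 34.0-fold lower. Among the others, the differences included those of Gabrr1 (−9.86), Grm8 (−8.67), Gabrr3 (−7.62) and Grin1 (−7.46), then Gria2 (−6.67), Gabrr2 (−6.50), Grin2a (−6.32) and Grin2b (−6.09). Smaller ones were those of Gabbr2 (−5.69), Grm5 (−5.65), Gabrb2 (−5.25), Gabra2 (−4.84), Gabrg1 (−4.65), Gria4 (−4.01), Gabrd (−3.81), Gabra3 (−3.29), Gria3 (−3.08), Grin3a (−2.83), Gabbr1 (−1.89), Grm7 (−1.58) and Grik2 (−1.44). Several of these rested on few counts in UON, with 7 in the female and 0 in the male pool for Gabrr1, 7 and 0 for Grm8, 8 and 0 for Gabrr3 and 8 and 4 for Grin2a. Grm2, the remaining member called lower, had 2 counts in each UON pool, below the floor, against 1031 and 667 in retina, and no fold is given. The members that did not pass were Grik5, Grik3, Gabrb1, Gabra4, Gabra5, Grin2d, Grin3b, Gabre and Gabrq.

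MON held 4 members above retina (16.7% of all genes were called higher) and 24 below (10.9% called lower). Grm3 was higher by 5.26 (SE 0.290, adjusted p = 3.6e-05), Grik4 by 3.75 (SE 0.396, adjusted p = 0.000429), Gria1 by 2.79 (SE 0.297, adjusted p = 0.000451) and Grik3 by 1.84 (SE 0.520, adjusted p = 0.0337). The Grik3 call was lost without any of the 4 pools compared, with an adjusted p up to 0.265, and without the sex term (adjusted p = 0.0891). Gabrg3 did not pass in MON (log2 difference 0.64, SE 0.255, edgeR adjusted p = 0.105).

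Among those below, Gabrr1 and Gabrr3 were at 0 in both MON pools, at least 618-fold and 128-fold lower than in retina. Grin2c had 1 count over both MON pools, against 147 and 79 counts in retina. The differences included −7.67 for Grm8 (14 and 1 counts in MON), −7.39 for Grm2 (11 and 0 counts), −6.94 for Grm4 (5 and 0 counts), −4.68 for Grin2b, −4.46 for Gabbr2, −4.38 for Gabra5 and −4.27 for Grin2a. Further ones were −4.03 for Gabra2, −3.93 for Grin1, −3.33 for Gabrd, −3.28 for Gabra4, −3.24 for Gria2, −3.02 for Gabra3, −2.87 for Gabrb2, −2.81 for Grin2d, −2.40 for Gabrr2 and −1.58 for Grm7. Gabrr2 was thus the rho subunit closest to its retinal level in MON. Gria4 (−0.45), Gabbr1 (−0.07), Grik5 (−0.02) and Grin3a (0.24) did not pass against retina in MON. The medians over the tested members were −4.01 for UON and −3.24 for MON against retina, beside −0.17 and 0.00 over all genes.

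Genes that work with the receptors were examined from 7 lists, as a description. In UON against MON, 4.83% of all genes were called higher and 4.8% lower. In UON against MON, the astrocyte glutamate transporter Slc1a3 was higher by 2.33 (SE 0.328, edgeR adjusted p = 0.00657) and the cystine-glutamate exchanger Slc7a11 by 2.61 (SE 0.228, edgeR adjusted p = 0.0016), whereas the transporters Slc1a1 (−2.62) and Slc1a2 (−1.31) were lower, so that 2 of 15 genes of glutamate transport and metabolism were higher and 2 lower. Of 9 genes of GABA synthesis and transport, the transporters Slc6a12 (3.71) and Slc6a13 (3.55) and the degrading enzyme Abat (1.19) were higher, and the synthetic enzymes Gad1 (−3.48) and Gad2 (−2.11) were lower. Of 14 AMPA and kainate auxiliary subunits, Frrs1l was higher (1.70) and Cacng4 lower (−3.31). Dlg2 (−2.32) and Camk2b (−1.66) were lower among 20 excitatory scaffold genes, Lhfpl4 (−1.91) and Gphn (−1.26) among 10 inhibitory partners, and the chloride importer Slc12a2 (−2.25) among 2 chloride cotransporters. None of 5 glycine receptor genes was called in UON against MON by edgeR.

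Against retina, more of these genes were called lower. Of all genes, 18.2% were called higher and 13.5% lower in UON, and 16.7% and 10.9% in MON. Counts on lists this short are given beside those shares as a description only. Of the auxiliary subunits 9 were lower in UON and 6 in MON, with none higher. Of the excitatory scaffold genes 1 was higher and 11 lower in UON, and 1 higher and 9 lower in MON. Of the inhibitory partners these counts were 1 and 5 in UON and 1 and 2 in MON, and 4 and 3 glycine receptor genes were lower. Slc1a3 (5.03) and Slc7a11 (4.85) were among 4 genes of glutamate transport and metabolism higher in UON, where 8 were lower, and MON also had 4 and 8. The GABA list gave 3 higher and 4 lower in UON, with Slc6a13 higher at 5.62 and the vesicular transporter Slc32a1 among the lower, and 1 and 3 in MON. The chloride importer Slc12a2 was higher in both (1.88 in UON, 4.13 in MON) and the neuronal chloride exporter Slc12a5 lower in both (−6.98 and −8.21).

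Gria1 transcripts were then divided by cassette, where 2 of its 5 transcripts hold flip and 1 holds flop. The flip share of flip plus flop counts was 96.4% and 95.8% in naïve UON, 96.2% and 71.1% in naïve MON, and 63.9% and 16.8% in naïve retina. Over all libraries it ran from 57.4% to 96.8% in UON (median 94.1%), from 55.3% to 99.5% in MON (median 95.6%) and from 0.293% to 68.1% in retina (median 13.8%). Flip exceeded 50% in 12 of 12 UON, 12 of 12 MON and 2 of 12 retinal libraries. Pools of the same group could lie far apart, as at crush 2W in UON (95.8% and 57.4%), and the shares come from assembled transcripts whose exons are mostly identical, so they are given with no test.

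**Figure D3:**
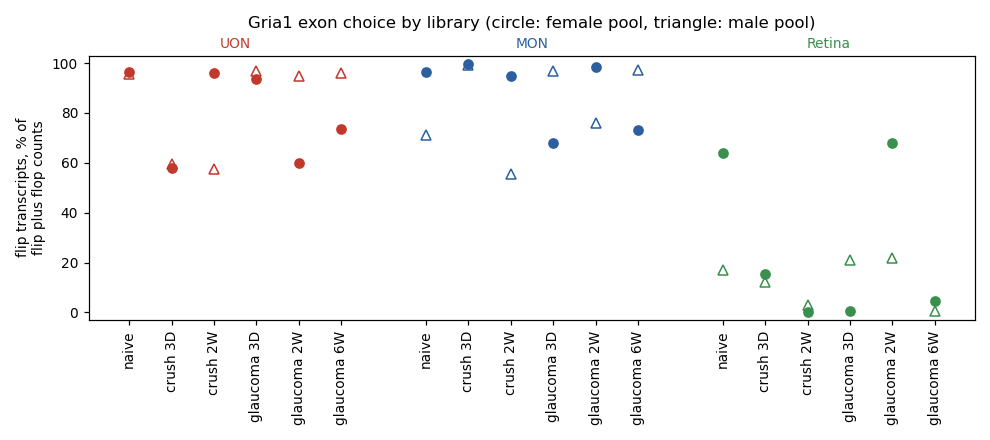
Percent of Gria1 flip plus flop counts that fell on flip transcripts, with 1 point for each of the 36 libraries by tissue and group. All 24 nerve libraries lie above 50%, and 10 of the 12 retinal libraries lie below.

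After injury, each group was compared with the naïve pools of its own tissue. In UON, 31 members were tested after crush and 36 in glaucoma, and none was called by edgeR or DESeq2 at any time. The share of all genes called by edgeR was 0% at crush 3D, 0.0281% at crush 2W, and 0% at glaucoma 3D, 0% at 2W and 0% at 6W. The members with an unadjusted p under 0.05 numbered 3 at crush 3D (3.07% of all genes), 2 at crush 2W (9.27%), 2 at glaucoma 3D (3.87%), 3 at glaucoma 2W (3.57%) and 0 at glaucoma 6W (2.01%). The median over tested members ran from −0.63 (crush 2W) to 0.40 (glaucoma 3D), beside −0.09 and 0.04 over all genes at the same times.

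Gria1 measured 1630 and 1568 CPM in naïve UON, 1417 and 618 CPM at crush 3D, 679 and 865 CPM at crush 2W, 877 and 1128 CPM at glaucoma 3D, 1542 and 1618 CPM at 2W and 1607 and 1779 CPM at 6W. Its 4 pools at crush 2W and glaucoma 3D lay below both naïve pools. The log2 difference was −1.05 at crush 2W (SE 0.439, edgeR adjusted p = 0.536) and −0.68 at glaucoma 3D (SE 0.229, adjusted p = 1), and neither passed. Gabrg3 stayed between 152 and 282 CPM in all 12 UON libraries.

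The other members of smallest p in UON by edgeR were Gabrb1 at crush 3D (−1.27, adjusted p = 1), Grik4 at crush 3D (−1.17, adjusted p = 1) and crush 2W (−1.29, adjusted p = 0.496), and Gria2 at glaucoma 3D (2.17, adjusted p = 1). At glaucoma 2W they were Grin3a (−2.86, adjusted p = 1) and Gria3 (1.69, adjusted p = 1), and at 6W Grm3 (0.68, adjusted p = 1) and Grik5 (−1.28, adjusted p = 1). Grik4 measured 18.6 and 21.7 CPM in naïve UON, 11.2 and 7.42 CPM at crush 3D and 10.8 and 6.67 CPM at crush 2W. All 4 crushed pools lay below the naïve pools for this gene.

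**Figure D4:**
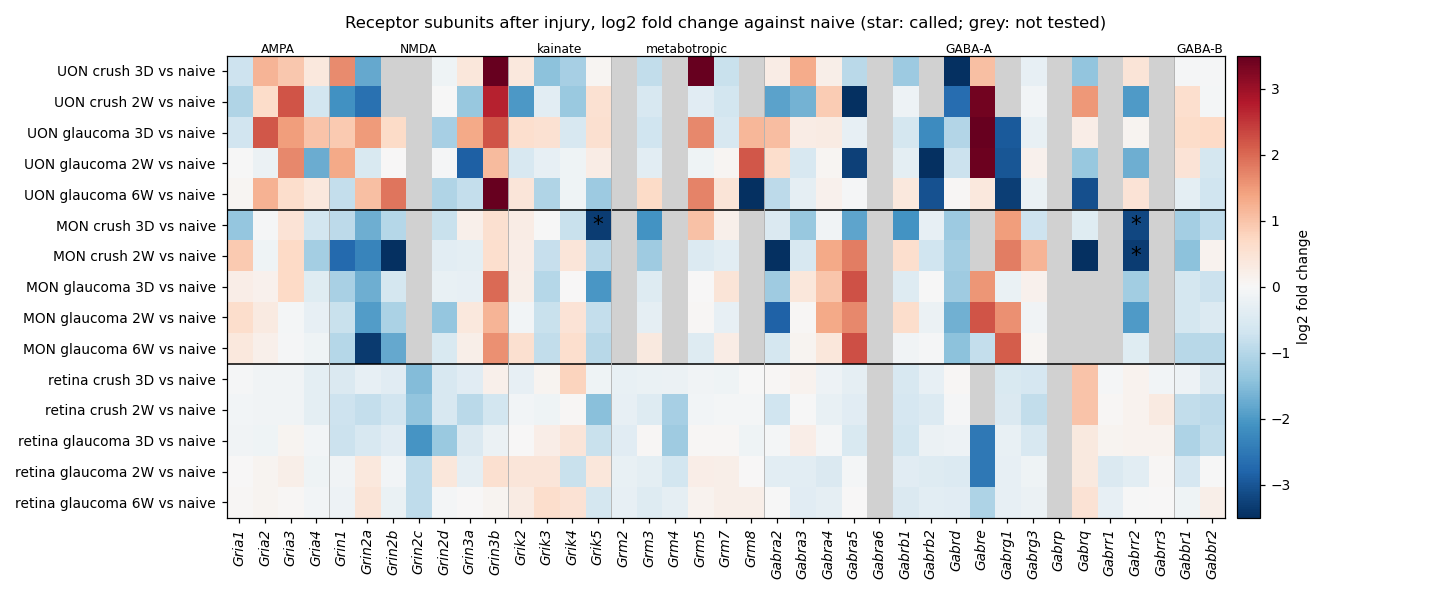
Log2 fold change of tested members against naïve for the 15 injured groups of UON, MON and retina. The cells of Gabrr2 in MON at crush 3D (−3.20) and 2W (−3.32) and of Grik5 in MON at crush 3D (−3.31) are the 3 that passed the test.

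In MON at crush 3D, 33 members were tested, and Grik5 and Gabrr2 were called lower where edgeR called 4.26% of all genes. Grik5 measured 17.9 and 23.0 CPM in naïve MON and 1.60 and 2.52 CPM at crush 3D, a log2 difference of −3.31 (SE 0.425, adjusted p = 0.0122). Gabrr2 measured 19.0 and 14.6 CPM in naïve MON and 2.30 and 1.35 CPM at crush 3D, a difference of −3.20 (SE 0.449, adjusted p = 0.015). For both genes the crushed pools lay below both naïve pools. Without the female naïve MON pool the adjusted p rose to 0.0948 for Grik5 and 0.119 for Gabrr2, and without the male naïve pool it was 0.0885 for Gabrr2. The log2 differences stayed at −2.96 for Grik5 and at −3.24 and −3.16 for Gabrr2, and those fits called only 0.0903% and 0.762% of all genes.

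At crush 2W in MON, Gabrr2 was the member called of 33 tested, where edgeR called 2.72% of all genes. It measured 1.81 and 1.48 CPM, a log2 difference of −3.32 (SE 0.452, adjusted p = 0.0212), and this call was lost without the female (adjusted p = 0.162) or the male naïve pool (0.119) by edgeR, with log2 differences of −3.37 and −3.26, in fits that called 0.0808% and 0.241% of all genes. Grik5 measured 6.63 and 16.1 CPM at crush 2W, between its 3D and naïve levels. Gria4 measured 35.1 and 34.9 CPM in naïve MON and 14.8 and 15.7 CPM at crush 2W (−1.18, SE 0.296, edgeR adjusted p = 0.0897). The medians over tested members were −0.73 at 3D and −0.49 at 2W, against −0.00 and 0.05 over all genes.

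DESeq2 called 5 members lower at each time in crushed MON, where it called 12.3% of all genes at 3D and 8.93% at 2W. At 3D these were Grik5, Gabrr2, Grm3, Gabrb1 and Gria1, and at 2W Gabrr2, Gabbr1, Gria4, Grin1 and Grin2b. Grm3 measured 127 and 71.1 CPM in naïve MON, 38.1 and 10.4 CPM at crush 3D and 30.5 and 43.0 CPM at crush 2W. Its log2 difference at 3D was −2.10 (SE 0.521, edgeR adjusted p = 0.0709), which did not pass the main test.

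Cell markers were followed in the same MON libraries. The summed level of 11 astrocyte markers was 15794 and 12060 CPM in naïve MON, 13125 and 6852 CPM at crush 3D and 13399 and 21724 CPM at crush 2W. The male crush 3D pool, lowest for the astrocyte sum among 12 MON libraries, was also the lowest for Gria1 (36.6 CPM against 148 to 438 CPM in the others), Gabrg3 (5.24 CPM), Gabrb1 (3.00 CPM) and Grm3 (10.4 CPM). The summed level of 12 mature oligodendrocyte markers lay below the naïve range in all 4 crushed MON pools, with 145160 and 115475 CPM in naïve MON, 81837 and 67269 CPM at 3D and 43162 and 54845 CPM at 2W. Of 12 microglia and macrophage markers, 2 were higher at 3D and 6 at 2W. The part of these shifts in the receptor values was not tested.

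The transcripts that carried Grik5 differed between libraries. The counts of naïve MON lay on a protein-coding model of 3763 exon bases in the female pool (96.6%) but on none of it in the male pool, where 381 of 420 counts lay on a model of 4061 exon bases marked for nonsense-mediated decay. Over all Grik5 transcripts the crush 3D pools of MON had 30 and 136 counts, against 1311 and 420 in the naïve pools. The shift of counts between these 2 models was also seen in UON and retina. For Gabrr2, a coding model of 1820 exon bases held 997 and 138 counts in naïve MON and 0 in all 4 crushed MON pools. A coding model of 1933 exon bases held 331 and 86 in naïve MON, 29 and 47 at crush 3D and 32 and 46 at crush 2W. All Gabrr2 counts were 43 and 73 at crush 3D and 32 and 54 at crush 2W in MON. The model of 1820 bases was also at 0 in the male naïve UON pool, which had 32 Gabrr2 counts, and in both UON pools at glaucoma 3D and 2W. Its loss thus cannot be told from a low total.

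**Figure D5:**
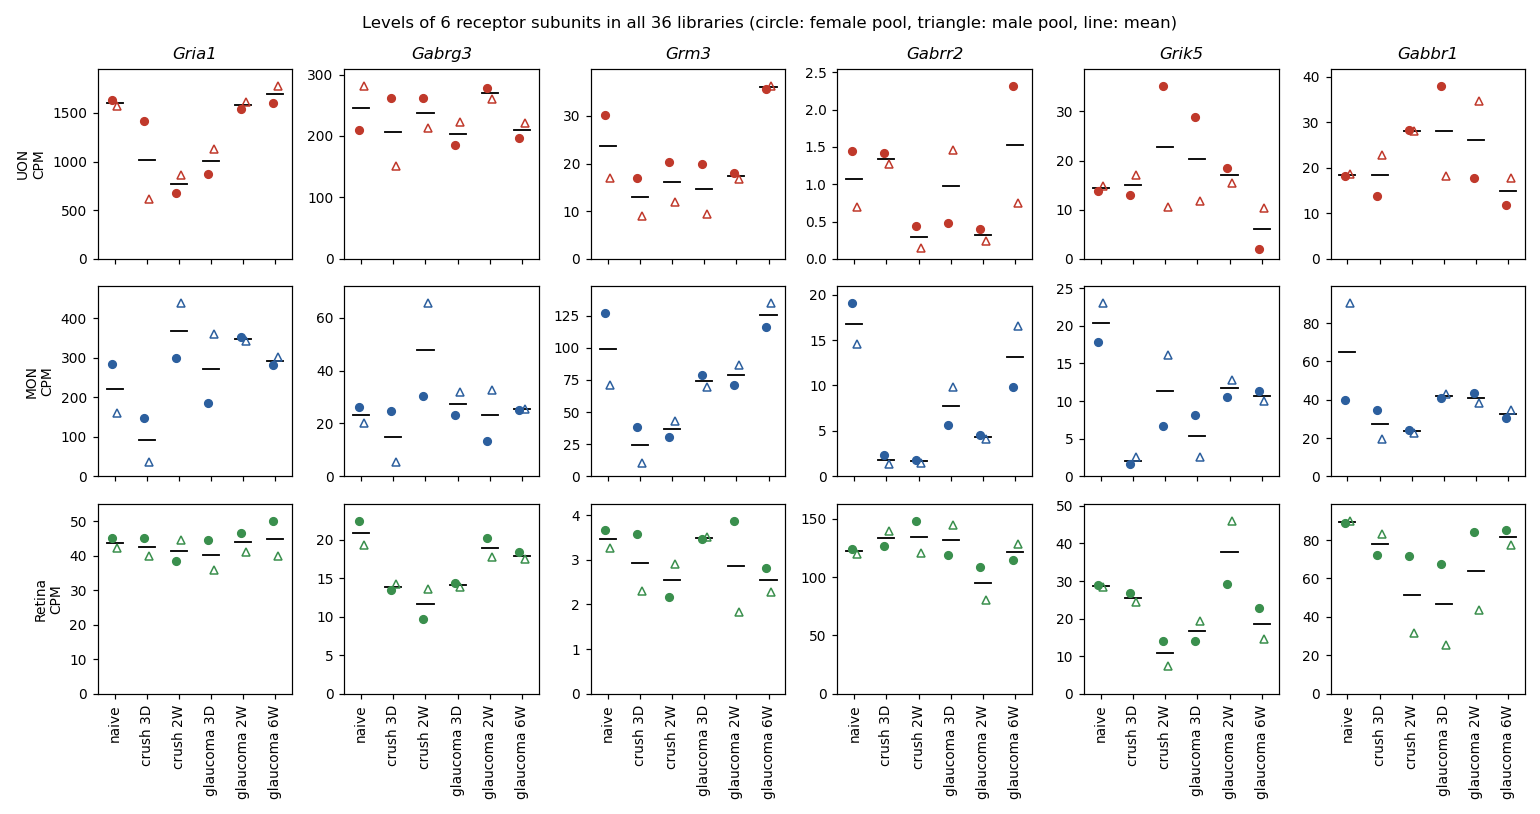
CPM of selected members in every library of a tissue by group, with 1 point per pool. In MON, Gabrr2 and Grik5 at crush 3D lie below 3 CPM in both pools, and the naïve pools lie above 14 CPM.

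In glaucoma, no member was called in MON by edgeR among 34 tested, where 0% of all genes were called at 3D, 0% at 2W and 0% at 6W. The members with an unadjusted p under 0.05 numbered 2, 2 and 1, beside 8.07%, 8.78% and 4.91% of all genes. Gabrr2 measured 5.62 and 9.84 CPM at 3D, 4.54 and 4.08 CPM at 2W and 9.78 and 16.6 CPM at 6W, so that its pools at 3D and 2W were below both naïve pools. Its log2 difference was −1.22 at 3D (SE 0.394, edgeR adjusted p = 0.50) and −1.99 at 2W (SE 0.402, adjusted p = 0.293). Grik5 measured 8.17 and 2.62 CPM at 3D (−2.04, SE 0.522, edgeR adjusted p = 0.416).

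DESeq2 called 1 member at each of the first 2 times in MON with glaucoma, Grik5 at 3D, where it called 2.3% of all genes, and Gabrr2 at 2W, where it called 2.65%. At 6W it called no member, where it called 0.247% of all genes. The next members by edgeR were Gabra2 at 2W (−2.84, adjusted p = 0.518), and at 6W Gabbr1 (−0.97, adjusted p = 0.849) and Grik4 (0.58, adjusted p = 0.849). The comparisons of crush and glaucoma with naïve share the naïve pools.

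In retina, 40 members were tested after crush and 41 in glaucoma, and none was called by edgeR. All genes called were 0.0221% at crush 3D, 0.313% at crush 2W, 0.00429% at glaucoma 3D, 0% at glaucoma 2W and 0.00858% at glaucoma 6W. At crush 2W, 14 members had an unadjusted p under 0.05, or 14 of 40 beside 8.99% of all genes, and 5 of 40 had a positive difference, with a median of −0.37 beside 0.01 over all genes. At glaucoma 3D, 9 of 41 had an unadjusted p under 0.05, beside 6.09% of all genes. The numbers were 5 at crush 3D (6.34% of all genes), 4 at glaucoma 2W (6.29%) and 1 at glaucoma 6W (5.67%).

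Grik5 measured 28.9 and 28.3 CPM in naïve retina and 14 and 7.42 CPM at crush 2W (−1.47, SE 0.256, edgeR adjusted p = 0.106). Gabbr2 measured 39.5 and 37.1 CPM in naïve retina and 19.3 and 21.9 CPM at crush 2W (−0.91, SE 0.158, edgeR adjusted p = 0.106). Grin1, named beyond the rule after its values were seen, measured 73.6 and 70.5 CPM in naïve retina and 42.8 and 45.9 CPM at crush 2W (−0.71, SE 0.127, edgeR adjusted p = 0.113). In all 3 genes both crushed pools lay below both naïve pools, but the change missed the threshold. DESeq2 called Grik5 alone, where it called 1.51% of all genes, and it called no member at the other 4 times in retina. At those times it called 0.633% (crush 3D), 0.669% (glaucoma 3D), 0.466% (glaucoma 2W) and 0.526% (glaucoma 6W) of all genes.

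The rho subunits of retina did not move in this way: Gabrr2 measured 124 and 120 CPM in naïve retina, 127 and 140 CPM at crush 3D and 148 and 121 CPM at crush 2W. The summed level of 12 retinal ganglion cell markers was 1793 and 1675 CPM in naïve retina, 1045 and 1113 CPM at crush 3D and 372 and 359 CPM at crush 2W, when 9 of 12 were called lower with a median of −3.03. The vesicular glutamate transporter Slc17a6, one of those markers, was also the only gene of the glutamate and GABA lists called in retina against naïve (−3.04, SE 0.162, edgeR adjusted p = 0.00249). Among 13 markers of bipolar, amacrine and horizontal cells 1 was lower. Whether the loss of ganglion cell markers accounts for the receptor values was not tested.

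The other leading members of retina by edgeR were Grin1 (−0.49, adjusted p = 0.541) and Gabbr2 (−0.51, adjusted p = 0.680) at crush 3D, and Gabbr2 (−0.86, adjusted p = 0.484) and Grin2c (−2.07, adjusted p = 0.549) at glaucoma 3D. At glaucoma 2W they included Gabrr1 (−0.51, adjusted p = 0.782), and at 6W Gabrb1 (−0.50, adjusted p = 0.865). Gabbr2 measured 18.5 and 23.9 CPM at glaucoma 3D and 45.5 and 43.1 CPM at glaucoma 6W, above the naïve pools by then.

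In the receptor-related lists, edgeR called few genes after injury, among them the following. In MON at crush 3D the AMPA auxiliary subunit Cacng5 was higher (4.12, SE 0.375, adjusted p = 0.00707). At crush 2W the auxiliary subunit Cacng3 was lower (−6.23, SE 0.646, adjusted p = 0.0129). None was called in UON. In crush against glaucoma at 2W, Cacng3 was lower in MON (−5.18, SE 0.581, edgeR adjusted p = 0.0155) and Slc17a6 in retina (−2.71, SE 0.161, edgeR adjusted p = 0.000185).

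Crush and glaucoma were compared directly at 3D and 2W, with all 12 libraries of a tissue in 1 fit and no naïve pool in the contrast. No member was called by edgeR in any of the 6 comparisons, among 37 tested members in UON and MON and 41 in retina. All genes called were 0% and 0.0418% in UON, 0.0162% and 0.0485% in MON and 0.0081% and 0.113% in retina, at 3D and 2W. Members with an unadjusted p under 0.05 numbered 0 and 2 in UON (1.07% and 10.2% of all genes), 8 and 5 in MON (10.4% and 7.51%) and 2 and 11 in retina (4.34% and 8.12%).

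At 3D in MON, Gabrr2 was 2.30 and 1.35 CPM after crush against 5.62 and 9.84 CPM in glaucoma (−2.10, SE 0.465, edgeR adjusted p = 0.349), and Grm3 was 38.1 and 10.4 CPM against 78.5 and 69.8 CPM (−1.70, SE 0.489, adjusted p = 0.357). The pools of the models did not overlap for either gene. DESeq2 called both, where it called 3.34% of all genes. At 2W in MON, Gria4 (−0.92, edgeR adjusted p = 0.341) and Gabrr2 (−1.39, adjusted p = 0.468) led. DESeq2 called none of the members there, where it called 1.8% of all genes.

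In retina at 2W, Grik5 was 14 and 7.42 CPM after crush against 29.2 and 46.0 CPM in glaucoma (−1.83, SE 0.352, edgeR adjusted p = 0.125), and Gabbr2 was 19.3 and 21.9 CPM against 34.8 and 40.8 CPM (−0.87, SE 0.171, adjusted p = 0.129). DESeq2 called Grik5 and Grin2a, where it called 0.797% of all genes. At 3D in retina, Grm4 (1.013, edgeR adjusted p = 1) and Gabbr1 (0.90, adjusted p = 1) led. In UON the leading members were Gabrd (−2.17, edgeR adjusted p = 1) and Gabbr1 (−0.67, adjusted p = 1) at 3D and Grik4 (−1.06, adjusted p = 0.428) and Gria1 (−1.03, adjusted p = 0.435) at 2W. DESeq2 called no member in UON, where it called 0.0286% of all genes at 3D and 2.58% at 2W. It also called none in retina at 3D, where it called 0.202%.

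Whether UON and MON responded differently was tested as an interaction of tissue and injury, and no member was called by edgeR at any of the 5 times. All genes called were 0.012% at crush 3D, 0% at crush 2W, and 0% at glaucoma 3D, 0% at 2W and 0% at 6W. Of 35 members tested for crush and 37 for glaucoma, those with an unadjusted p under 0.05 numbered 3, 7, 1, 6 and 1 in that order, beside 6.93%, 10.9%, 5.86%, 6.18% and 3.1% of all genes. At crush 3D the leading members were Gabrr2 (3.67, SE 0.872, adjusted p = 0.311) and Grik5 (3.35, SE 0.844, adjusted p = 0.337), where a positive value means a smaller fall or larger rise in UON. In UON, Gabrr2 measured 1.44 and 0.696 CPM in naïve and 1.42 and 1.27 CPM at crush 3D, and Grik5 measured 13.8 and 14.8 CPM in naïve and 13 and 17.0 CPM at crush 3D.

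DESeq2 called both Gabrr2 and Grik5 in this interaction at crush 3D, where it called 1.42% of all genes, and Gabbr1 at crush 2W, where it called 3.6%. By edgeR, Gabbr1 (2.02, adjusted p = 0.258) and Grik4 (−1.70, adjusted p = 0.309) led at crush 2W. Gabbr1 measured 28.3 and 28.1 CPM in UON at crush 2W against 18.3 and 18.7 CPM in naïve UON, and 24.3 and 22.7 CPM in MON at crush 2W against 39.6 and 90.2 CPM in naïve MON. In glaucoma the leading members were Grik5 (2.42, adjusted p = 0.791) and Gabbr1 (1.22, adjusted p = 0.791) at 3D, Grin3a (−2.71, adjusted p = 0.772) at 2W, and Gabrg1 and Grin2a at 6W on a few counts (edgeR adjusted p = 1). DESeq2 called no member in the glaucoma interactions, where it called 0.267%, 0.603% and 0.156% of all genes at 3D, 2W and 6W.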

How the data were processed

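Bulk RNA-seq of pooled RNA was deposited for 36 libraries, grouped by the tissue, treatment, time and sex in their labels. Read pairs were mapped by the authors with HISAT2 2.2.1 (GRCm38) and assembled with StringTie 1.3.0 on Gencode M25. The deposited estimated counts per gene and transcript come from StringTie's count script, which derives them from coverage, and the TPM and FPKM per gene are StringTie values deposited by the authors. FastQC and the builds and versions are as in the submitters' processing notes. Of the TPM, 25 values just below 0 were set to 0.

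Counts of all 55487 genes were tested with edgeR 4.0.16 (R 4.3.3, limma 3.58.1): TMM, filterByExpr (minimum count 10, minimum total 15), quasi-likelihood F test, Benjamini-Hochberg over all genes tested, called at adjusted p under 0.05 and log2 fold change beyond 1. Sex was a term, as in the study's methods. The methods state that all 3 tissues came from each animal, so pools of 1 group and sex are paired. In the naïve fits sex is also this pairing block, although the deviations of same-sex pools correlated by only 0.0278 to 0.0513 over 16621 genes. Over 30097 genes, the difference between female and male pools in UON correlated with that in MON by −0.0364 to 0.0948 within groups. Alternatives were DESeq2 1.42.0, RLE factors, no filter, no sex term, more libraries in a fit, leaving out each library, FPKM in place of TPM, and, chosen after seeing the data, the pool of animals as a block for the difference in response. Scripts were tested on simulated data. Floors are 3 counts per library and cover counting error only. Exons were read from Gencode M21 on GRCm38.

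Named were members called in a comparison (the 30 largest), otherwise the 2 of smallest p, and by TPM the 3 highest of each family and tissue. From the related lists, called genes were named, at most 4 a list and comparison. The members and lists were chosen with earlier results of these data known. Some members and list genes count in the totals but are not reported here by name or drawn.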

Additional observations from a re-analysis of the deposited data

Results flagged for a closer look

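Gabrr2 was flagged at crush 3D because its pools moved in opposite directions in MON and retina. In MON both pools fell, with a log2 difference from naïve of −3.20, whereas in retina both pools were above the naïve ones, at 127 and 140 CPM against 124 and 120 CPM, with a log2 difference of 0.13. The difference between the 2 tissues was not tested.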

How the results depend on the processing

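In naïve tissue, 8 of 12 calls in UON against MON, 26 of 32 in UON against retina and 20 of 28 in MON against retina held under every alternative run. The fit of all 36 libraries gave 9, 32 and 25 calls in that order, where 6.4%, 25.8% and 21.8% of all genes were called. Leaving out a library gave 10 to 14, 29 to 31 and 23 to 27 calls. Apart from the calls already given, the calls lost by leaving out 1 pool included UON against retina for Gabrg1 and Grm7 (male retina; Grm7 also male UON), Grin2c (female retina) and Grik2 (male retina or either UON pool), and MON against retina for Gabra4 (male MON), Gabra5 (male MON or male retina), Gabrb2 (female retina), Grm7 (male retina), Grin2c (female MON or either retina) and Grin2d (any pool). Gabrr3 in UON against retina was lost by DESeq2 (adjusted p = 0.108). Without the sex term (the replicate block), naïve counts were 10, 31 and 27, with Grin1 and Grik3 lost in UON against MON (adjusted p = 0.0526 and 0.0963), and also Gabrg1 in UON against retina (0.0812) and Grik3 in MON against retina (0.0891), and MON crush 2W had 2 calls.

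At crush 3D in MON, DESeq2 called 5 members, the fit with no filter 6 (5.41% of all genes), and leaving out a library gave 0 to 7, all lower, with 0 without the female (0.0903% of all genes) and 1 without the male naïve pool (0.762%) and 7 without the female crush pool (8.67%). At crush 2W in MON these were 5, 4 (1 higher, 3.8% of all genes) and 0 to 4, with 0 without either naïve pool (0.0808% and 0.241%), 4 without the female crush pool (2 higher, 4.7%) and 2 without the male one (7.36%), and the fit of all 12 libraries gave 2. Retina at crush 2W had 1 (DESeq2, 1.51% of all genes) and 1 (no filter, 0.436%). DESeq2 called 1 in MON at glaucoma 3D (2.3% of all genes) and 1 at 2W (2.65%). Crush against glaucoma in MON at 3D gave 2 (DESeq2, 3.34% of all genes) and 3 (no filter, 0.829%). In retina at 2W these were 2 (0.797%) and 1 (0.201%). Leaving out a library also gave member calls in some comparisons that had none in the main fit. These were retina at crush 2W and at glaucoma 2W, and the difference in response at crush 2W. They also included crush against glaucoma in MON at 3D, and in UON and retina at 2W. Differences in response gave 2 (DESeq2, 1.42% of all genes) and 1 (no filter, 0.864%) at crush 3D, and 1 (3.6%) and 1 (1.42%) at crush 2W. With the pool of animals as a replicate block, a fit chosen after seeing the data, they gave 0 at all 5 times, as without it, where 0.04%, 0.092%, 0%, 0.00387% and 0% of all genes were called, and Gabrr2 was 3.65 and Grik5 3.38 at crush 3D (edgeR adjusted p = 0.327 and 0.253). Gabbr1 in UON crush against glaucoma at 3D ran from −1.30 without the male to 0.19 without the female glaucoma pool, where it reversed. The cause of these changes was not tested. With FPKM, 4 members changed rank in MON and none in UON or retina, with the same 10 highest. Fits that leave out a library keep 1 pool in that group, so their counts of calls are not read as results about the members. At 2 pools a group, small differences cannot be shown at this depth.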
